A study of Mus musculus with 6 samples.

Results

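The cell proliferation genes are a named list of 37 genes of DNA replication, cell cycle control and mitosis, and each was found as 1 row of a deposited table of 57180 genes. The tissue was inguinal white adipose tissue of mice, a fat pad under the skin. They were taken by gene name and not by any measured value. RNA sequencing was given as TPM (transcripts per 1000000), a length-adjusted share of each library. The HEP group had 3 samples from mice whose high-fat diet contained 0.5% hesperidin, and the HFD group had 3 from mice whose high-fat diet contained none. Hesperidin is a flavonoid glycoside of citrus fruit. All mice were male, carried the label WT for genotype, and were on the diets for 12 weeks, and the 6 samples carried 1 batch label. Sources used here give neither strain nor age, and a control diet named in the series was not analysed here. Nothing in the labels tied each sample to its own animal, so every p-value below reflects the spread among these samples alone, which may be technical. Depth per sample was unknown, because TPM keeps no depth.

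Cells that divide copy their DNA in S phase and separate it in mitosis, and most genes of this list are transcribed only in cells that have entered the cycle. E2F factors switch on the replication genes, and the MuvB complex, which binds the promoter element called CHR, acts later on the mitotic genes, many of which also have CCAAT boxes bound by NF-Y. Mature adipocytes do not divide, so in fat these transcripts are usually traced to progenitors, endothelial cells and immune cells. In a bulk sample, more cycling cells and more RNA per cycling cell cannot be told apart.

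Many promoters of the list hold these elements, and 4 are shown here because they display the replication type and the mitotic type side by side. The sequences are RefSeq windows of build GRCm38.p6, each 300 bases from 250 before to 50 after the annotated start, read 5′ to 3′ on the gene's strand, with motif matches in capitals. Mcm7 (chr5:138171834-138172133, minus strand) and Cdk1 (chr10:69352863-69353162, minus strand) were the most abundant members holding both a CCAAT box and a CHR, and also the most abundant holding an E2F element. Ccnb2 (chr9:70421505-70421804, minus strand) and Mcm6 (chr1:128359656-128359955, minus strand) were added after the matches were seen.
Ccnb2: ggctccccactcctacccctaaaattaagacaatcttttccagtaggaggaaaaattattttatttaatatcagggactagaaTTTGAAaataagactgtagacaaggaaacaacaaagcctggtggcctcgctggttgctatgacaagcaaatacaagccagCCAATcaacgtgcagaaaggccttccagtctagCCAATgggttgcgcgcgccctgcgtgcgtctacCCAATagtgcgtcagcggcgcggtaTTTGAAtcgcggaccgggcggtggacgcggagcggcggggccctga
Cdk1: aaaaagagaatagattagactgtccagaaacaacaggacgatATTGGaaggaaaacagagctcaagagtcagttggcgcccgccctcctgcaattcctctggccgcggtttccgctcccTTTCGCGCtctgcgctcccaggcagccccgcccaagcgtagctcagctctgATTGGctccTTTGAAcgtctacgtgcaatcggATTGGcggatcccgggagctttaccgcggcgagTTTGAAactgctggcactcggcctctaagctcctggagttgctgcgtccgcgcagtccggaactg
Mcm6: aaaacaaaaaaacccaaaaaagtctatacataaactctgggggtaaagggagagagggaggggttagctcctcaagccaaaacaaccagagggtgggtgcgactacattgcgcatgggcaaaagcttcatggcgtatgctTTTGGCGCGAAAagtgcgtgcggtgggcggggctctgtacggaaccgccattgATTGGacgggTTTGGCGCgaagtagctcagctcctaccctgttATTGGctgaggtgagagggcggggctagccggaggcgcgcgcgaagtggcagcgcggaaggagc
Mcm7: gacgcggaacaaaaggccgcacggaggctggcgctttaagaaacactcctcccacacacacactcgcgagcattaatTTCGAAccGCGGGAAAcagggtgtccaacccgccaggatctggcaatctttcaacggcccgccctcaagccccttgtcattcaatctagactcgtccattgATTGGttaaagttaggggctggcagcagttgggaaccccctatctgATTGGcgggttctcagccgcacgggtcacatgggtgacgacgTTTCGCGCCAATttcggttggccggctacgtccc

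In these windows Ccnb2, the cyclin B2 gene, held 3 CCAAT boxes and 2 CHR elements and had no E2F letters. Mcm6, a subunit of the helicase that opens replication origins, held 3 E2F matches and 2 CCAAT boxes and had no CHR letters. Cdk1, the kinase that drives mitosis, held 3 CCAAT boxes, 2 CHR elements and 1 E2F match, and Mcm7 held 3, 1 and 2. The letters searched, on both strands, were CCAAT for the CCAAT box. For the CHR they were TTTGAA and also TTCGAA, which reads the same on both strands. For E2F they were TTTGGCGC and also TTTCCCGC, with TTTGCCGC and also TTTCGCGC as further forms. An E2F match and a CCAAT box shared bases in 1 place, in Mcm7.

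Windows were found for 30 of the 37 genes, 32 windows in all, since Mcm7 and Prc1 had 2 starts each. The Mcm7 window not shown held a CCAAT box but no CHR or E2F letters, and a gene is counted below if any window matched. CCAAT stood in 27 of the 32, against 37.4% of all 32851 windows of this length. A CHR stood in 18 of 32, against 19.2% of all windows, and each of these 18 also held a CCAAT box, a pair found in 7.52% of all windows. E2F letters stood in 6 of 32, against 2.26% of all windows. The counts by role were small, and no difference between roles was tested. E2F letters were found in 5 of 7 replication licensing genes with a window (Cdc6, Mcm3, Mcm5, Mcm6 and Mcm7) and, among the other members, in Cdk1. CHR letters were found in 6 of 7 genes of mitotic kinases, checkpoint and ubiquitin ligase and in 6 of 8 genes of chromosome, kinetochore and spindle, against 2 of 7 licensing genes and 0 of 3 genes of nucleotide supply. The cyclins and Cdk1 had CHR letters in 2 of 4 and E2F letters in 1 of 4. CHR matches in the list lay at a median of 23 bases before the start and CCAAT boxes at a median of 71 bases before it. A match is a description of letters and not a mapped site, and the set of all windows includes genes that are not expressed in fat.

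The libraries differed in more than diet. The 12 B cell markers summed to 1510, 16.5 and 1585 TPM in HEP replicates 1 to 3, against 15.7, 20.4 and 718 TPM in HFD replicates 1 to 3. The 13 T and NK cell markers summed to 818, 13.0 and 877 TPM in HEP and to 10.2, 24.03 and 601 TPM in HFD. HEP replicates 1 and 3 and HFD replicate 3 thus carried high levels of lymphocyte transcripts, and the other 3 libraries carried little. The 8 skeletal muscle markers reached 11764 TPM in HEP replicate 2 and 53.7 to 1342 TPM in the other 5 libraries. The 7 liver markers summed to 2598 TPM in HEP replicate 2 and 1697 TPM in HFD replicate 1, against 13.0 to 112 TPM elsewhere. Single genes showed the same, with Ckm, muscle creatine kinase, at 226, 2100.3 and 0.17 TPM in HEP and 4.99, 90.8 and 2.93 TPM in HFD, and Alb, serum albumin, at 9.20, 1024 and 39.3 TPM in HEP and 664, 27.5 and 48.8 TPM in HFD. Adipoq, the adiponectin gene that defines adipocytes, was high in every library, at 2151 to 3926 TPM in HEP and 2891 to 4211 TPM in HFD. The 8 adipocyte markers summed to 29285, 46764 and 29053 TPM in HEP and to 46778, 49663 and 39255 TPM in HFD, lowest in the 3 libraries with the most lymphocyte transcripts. All 8 had a lower HEP mean with TPM as deposited, with a median log2 fold change of -0.42, and 0 of 8 passed in limma, 1 of them having an unadjusted p under 0.05. Of the keratinocyte markers, Krt10 had 4.01 to 6.15 TPM in HEP and 3.39 to 5.32 TPM in HFD, and Krt1, Krt5, Krt14 and Krt15 were at 0.27 TPM or less.

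Proliferation transcripts were present in every library at low to moderate levels. Mean TPM over the 6 libraries had a median of 5.23 over the 37 genes and ranged between 0.68 for Cenpf, a kinetochore protein, and 70.6 for Pcna, the sliding clamp of DNA polymerase. Pcna, Stmn1 at 48.3 TPM, Mcm7 at 22.2 TPM and Cdk1 at 21.2 TPM were the most abundant. At the other end stood Cenpe, a kinetochore motor, at 1.18 TPM and Bub1, a spindle checkpoint kinase, at 1.29 TPM. With a mean of at least 1 TPM required for testing, 36 of the 37 genes were tested and Cenpf was not. All 37 summed to 441, 255 and 465 TPM in HEP replicates 1 to 3, against 257, 308 and 405 TPM in HFD replicates 1 to 3. HEP replicate 2 was lowest of all 6 while the other HEP libraries were highest, with HFD replicate 3 next to them, so the diets overlapped.

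Set against the diets, no proliferation gene passed the test. In limma on log2(TPM + 1), 0 of 36 members were called higher and 0 lower in HEP at a Benjamini-Hochberg adjusted p under 0.05, where 0% of the 15446 genes tested were called in either direction. At an unadjusted p under 0.05 there were 0 members, while over all genes 105 (0.68%) were higher and 174 (1.13%) were lower in HEP. The smallest unadjusted p of a member was 0.185 for Prc1, and member adjusted p-values lay between 0.879 and 0.985. No member separated the groups, with 0 of 36 lying wholly above or wholly below HFD in the HEP libraries, where 1.88% and 3.58% of all tested genes did.

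The estimates were nevertheless nearly all on one side. The HEP mean of log2(TPM + 1) was higher for 35 of 36 members, Ccne2 being the exception, while 58.6% of all tested genes had a higher HEP mean. The count was 31 of 36 with median-of-ratios scaling, against 52.5% of all genes. It was 21 of 36 with quantile normalization, against 42.3% of all genes, a scaling under which the median log2 fold change of all genes was -0.06 in place of 0.07 and that of the members 0.06. Member log2 fold changes ran between -0.12 and 0.75 with a median of 0.22, and the 95% interval of every one spanned 0. Averaged over the tested members, log2(TPM + 1) was 2.94 ± 0.50 in HEP and 2.69 ± 0.34 in HFD (SD, n = 3 each), a difference of 0.25 that was smaller than either SD. Members share libraries and are not independent of each other, so this count is no test. Without HEP replicate 3 it was 24 of 36 with a mean difference of 0.08, a share close to the 65.3% of all genes in that fit. Without HEP replicate 2 it was 34 of 36 with a mean difference of 0.54, against 59.3% of all genes. In that fit without HEP replicate 2, 5 members (Cenpa, Mcm2, Mcm4, Prc1 and Top2a) had a higher HEP mean at an unadjusted limma p under 0.05, where 17.5% of all genes did (23.8% in either direction), so the members passed no more often than genes in general. The smallest limma adjusted p of a member was then 0.207, and the median log2 fold change of all genes was 0.12. Leaving out both libraries high in liver transcripts, an alternative chosen after seeing the data, gave 33 of 36 and 0.42, against 57.2% of all genes.

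**Figure D1:**
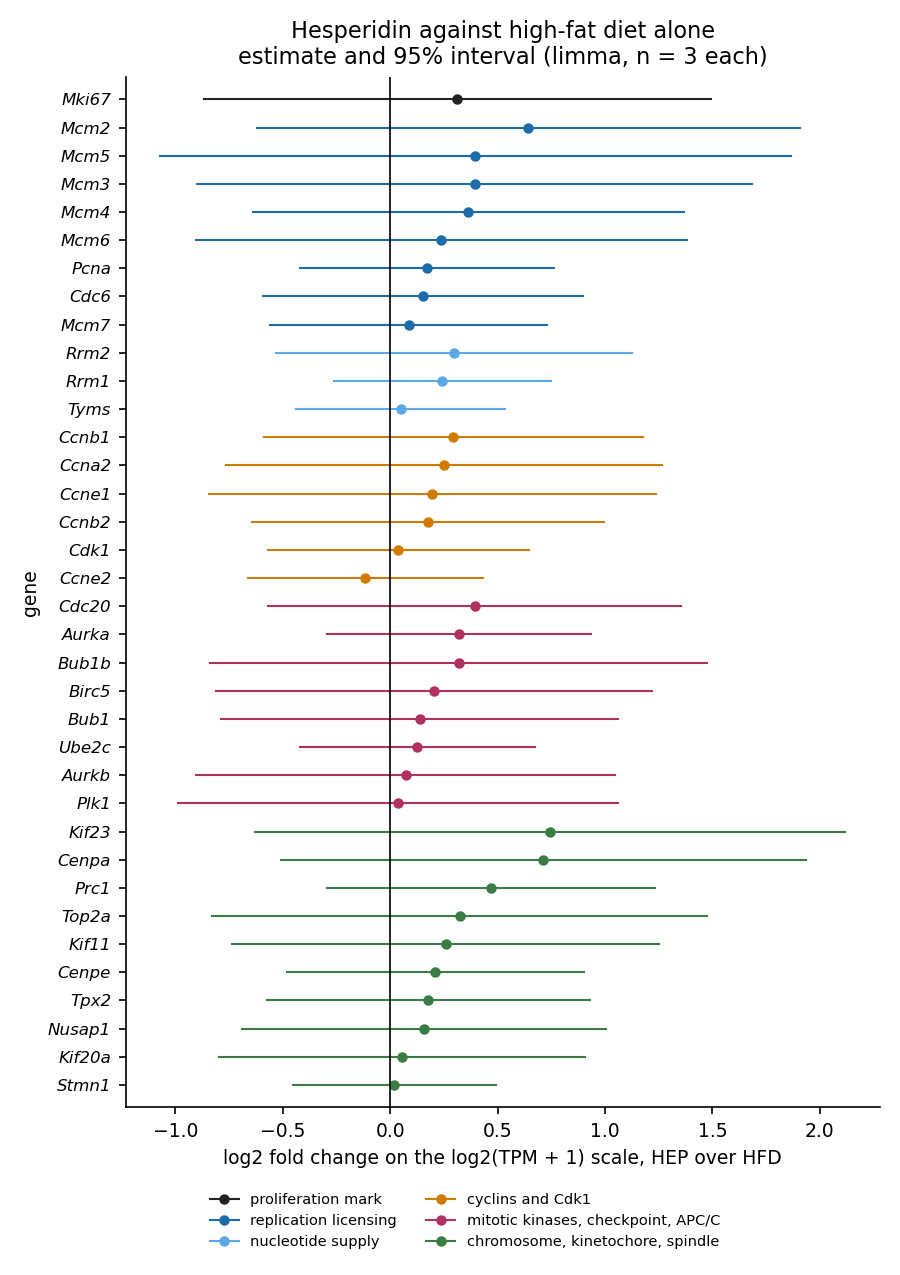
Log2 fold change of HEP over HFD for the 36 tested proliferation genes, on the log2(TPM + 1) scale, with points for the limma estimate and bars for its 95% interval (n = 3 samples per diet), coloured by role. All intervals span 0, and 35 of 36 estimates lie above 0, a count that is 21 of 36 with quantile normalization.

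The libraries kept a common order in most members. In 28 of 36 members the 3 highest values were those of HEP replicate 1, HEP replicate 3 and HFD replicate 3, the libraries with the most lymphocyte and the least adipocyte marker transcripts, where 30.5% of all tested genes showed that order. The 8 members that did not were Cdc6, Tyms, Ccne2, Cdk1, Aurka, Bub1, Cenpe and Stmn1. HEP replicate 2 was the lowest library in 19 of 36 members, against 25.4% of all tested genes. The B cell markers showed the same 3 highest libraries in 12 of 12 and the T and NK cell markers in 12 of 13. With the mean of these lymphocyte markers as a covariate, 11 of 36 members had a higher HEP estimate, against 48.5% of all genes, with a median log2 fold change of -0.09 and no member past an unadjusted p of 0.05.

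The members varied over the libraries far less than the lymphocyte markers did. The highest library exceeded the lowest by a median of 2.67-fold over the tested members, with a range of 1.42-fold to 5.72-fold, while the median over all tested genes above 0 in every library was 1.93-fold. For the B cell markers the median was 346-fold. Within the libraries rich in lymphocyte transcripts, HFD replicate 3 had the lowest B cell marker sum, and HEP replicates 1 and 3 both exceeded it in 23 of 36 members, against 45.7% of all tested genes, and in 12 of 12 B cell markers. Among the other libraries, HEP replicate 2 was below both HFD replicates 1 and 2 in 20 of 36 members, against 38.7% of all tested genes.

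**Figure D2:**
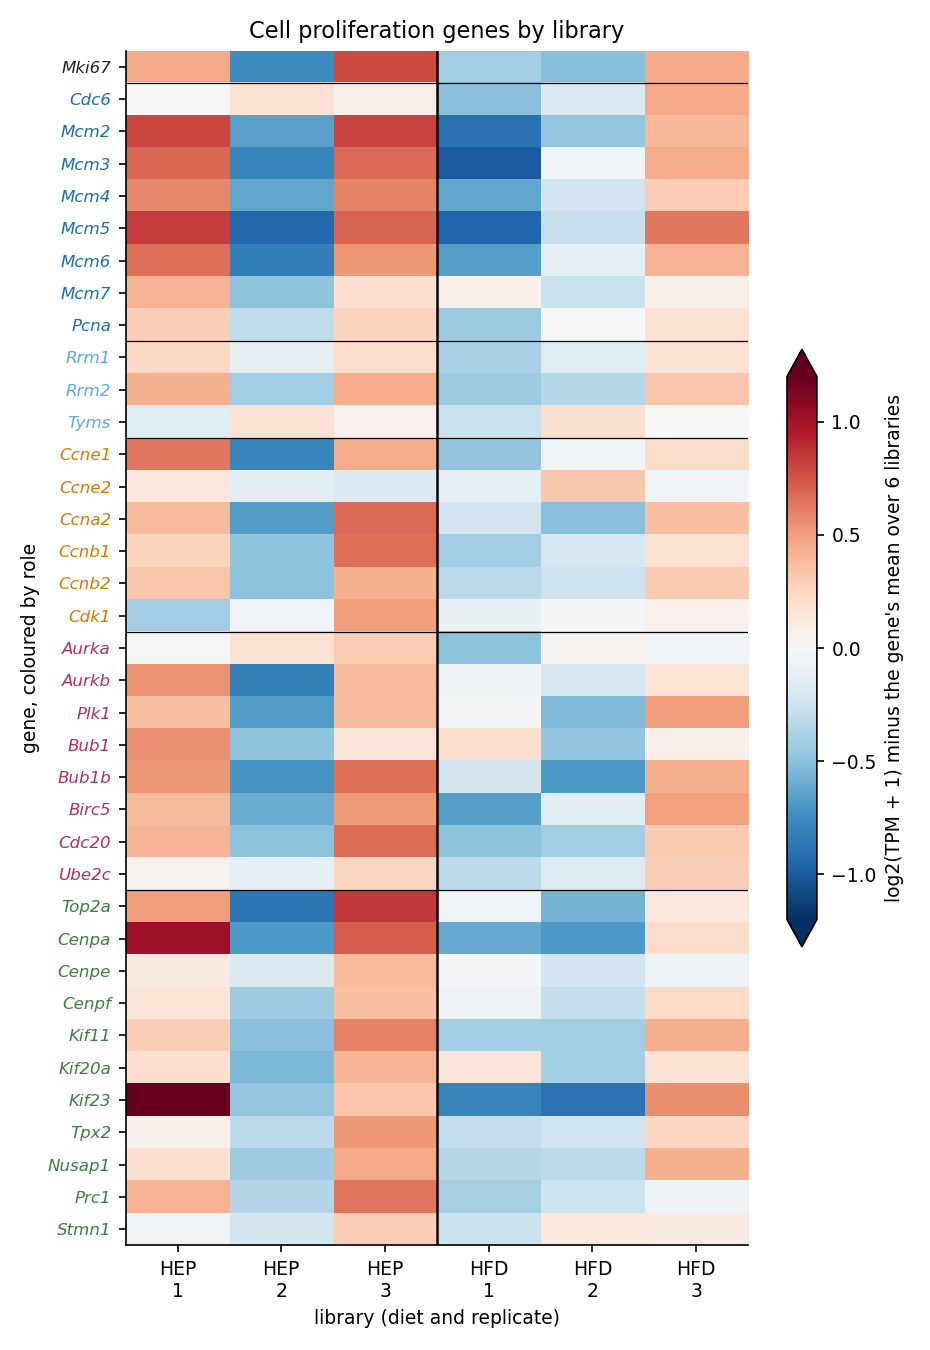
Heat map of the 37 proliferation genes (rows, grouped and coloured by role) in the 6 libraries (columns, HEP left of HFD); colour is log2(TPM + 1) minus the gene's mean over the libraries. HEP replicates 1 and 3 and HFD replicate 3 are red in most rows, while Tyms, Ccne2, Aurka and Stmn1 are pale throughout or show another order.

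Replication licensing genes had that order in 7 of 8 members. Cdc6 loads the MCM helicase on origins, Mcm2 to Mcm7 form that helicase, and Pcna clamps the polymerase to DNA. All 8 tested members had a higher HEP mean with TPM as deposited, by a median log2 fold change of 0.30, with Cdc6 and Mcm7 below 0 after quantile normalization, and 0 of 8 passed. Mcm5 (ENSMUSG00000005410) had 12.4, 2.88 and 11.2 TPM in HEP replicates 1 to 3, against 2.87, 5.18 and 10.6 TPM in HFD replicates 1 to 3. Its groups overlapped over nearly their whole range, and the log2 fold change was 0.40 ± 0.61 (SE, limma adjusted p = 0.881), with 0.02 without HFD replicate 1 and 0.97 without HEP replicate 2. Mcm2 (ENSMUSG00000002870) had 9.89, 2.99 and 10 TPM in HEP and 2.36, 3.53 and 7.27 TPM in HFD. HEP replicate 2 again lay among the low HFD libraries, and the log2 fold change was 0.64 ± 0.52 (SE, limma adjusted p = 0.879).

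Within the helicase the swing was unequal. Mcm3 had 21.7, 7.18 and 21.5 TPM in HEP and 6.03, 12.8 and 18.1 TPM in HFD, and Mcm6 had 21.2, 6.90 and 19.03 TPM in HEP and 7.86, 11.9 and 17.7 TPM in HFD. Mcm4 ran in the same order with 14.1, 5.56 and 14.2 TPM in HEP and 5.58, 7.64 and 11.5 TPM in HFD. The highest library exceeded the lowest by 2.56-fold to 4.31-fold for Mcm2 to Mcm6, but by 1.93-fold for Mcm7, which had 29.4, 15.2 and 25.1 TPM in HEP and 22.8, 17.95 and 22.9 TPM in HFD. Mcm7 shares 321 exonic bases with Ap4m1 and 64 with Cops6 on the opposite strand, and the labels did not say whether reads were assigned by strand. Ap4m1 had 19.1, 10.7 and 12.1 TPM in HEP and 15.8, 13.9 and 12.6 TPM in HFD, and Cops6 had 72.9 to 96.7 TPM in HEP and 88.5 to 104 TPM in HFD. The part of these overlaps in the Mcm7 values was not tested.

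Pcna and Cdc6 departed from the helicase genes in different ways. Pcna (ENSMUSG00000027342) was high everywhere, with 85.3, 55.9 and 83.3 TPM in HEP and 50.5, 69.6 and 78.8 TPM in HFD, a 1.69-fold span. Its log2 fold change was 0.17 ± 0.24 (SE, limma adjusted p = 0.880). Cdc6 (ENSMUSG00000017499) had 2.64, 3.12 and 2.83 TPM in HEP and 1.58, 2.24 and 4 TPM in HFD. Its HEP libraries lay close together, inside the HFD range, and HEP replicate 2 was the highest of the 3. The log2 fold change of Cdc6 was 0.15 ± 0.31 (SE, limma adjusted p = 0.907), and it was -0.05 with quantile normalization.

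Genes of nucleotide supply varied least. Rrm1 and Rrm2 are the large and small subunits of ribonucleotide reductase, which makes deoxynucleotides, and Tyms is thymidylate synthase. Rrm2 (ENSMUSG00000020649), the subunit made in S phase, had 8.45, 4.26 and 8.57 TPM in HEP and 4.20, 4.56 and 7.87 TPM in HFD, with a log2 fold change of 0.30 ± 0.34 (SE, limma adjusted p = 0.879). Rrm1 had 20.5, 15.8 and 20.04 TPM in HEP and 12.8, 15.3 and 19.4 TPM in HFD, with a log2 fold change of 0.24 ± 0.21 (SE, limma adjusted p = 0.879). Both had their 3 highest values in the libraries rich in lymphocyte transcripts. Tyms had 8.18, 10.5 and 9.53 TPM in HEP and 7.45, 10.6 and 9.21 TPM in HFD, the narrowest span of the tested members at 1.42-fold, and its 2 highest values lay in libraries with little of the lymphocyte transcripts.

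**Figure D3:**
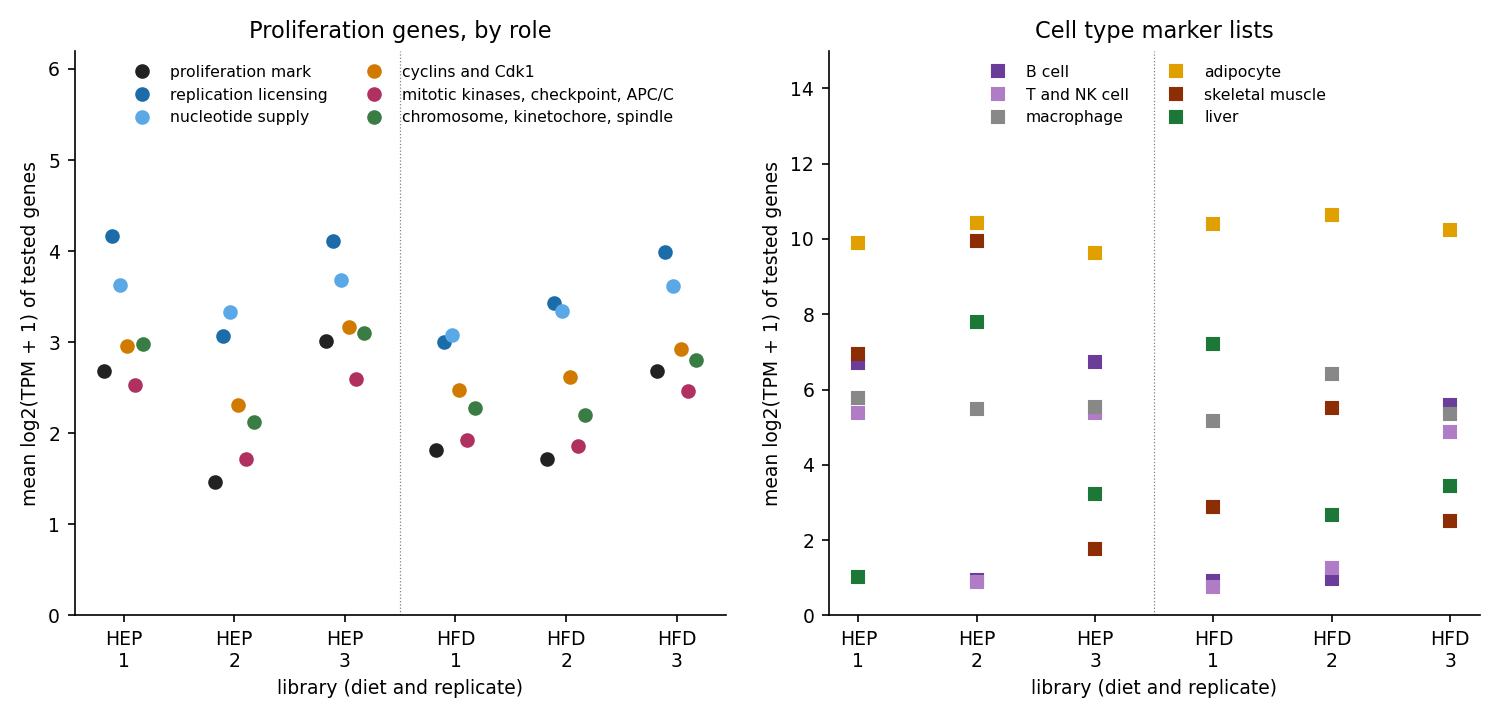
Mean log2(TPM + 1) of the tested proliferation genes in each library by role (left, circles) and of 6 cell type marker lists (right, squares), with the HEP libraries left of the HFD libraries and separate vertical scales; each point is 1 library. The roles are highest in HEP replicates 1 and 3 and HFD replicate 3, where B cell marker means are 5.59 to 6.74 against 0.92 to 0.97 in the other libraries.

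The cyclins and Cdk1 split into 2 kinds. Cyclin E genes act at the start of S phase, Ccna2 through S phase and into mitosis, and Ccnb1 and Ccnb2 with Cdk1 at the onset of mitosis. Ccna2 (ENSMUSG00000027715) had 7.70, 3.24 and 9.78 TPM in HEP and 4.75, 3.76 and 7.65 TPM in HFD, and Ccnb1 (ENSMUSG00000041431) had 3.58, 1.72 and 5.01 TPM in HEP and 1.86, 2.28 and 3.33 TPM in HFD. Log2 fold changes were 0.25 ± 0.42 for Ccna2 (SE, limma adjusted p = 0.891) and 0.29 ± 0.37 for Ccnb1 (SE, limma adjusted p = 0.879). Ccne1 (ENSMUSG00000002068) had 8.13, 2.41 and 7.04 TPM in HEP and 3.25, 4.69 and 5.88 TPM in HFD, a log2 fold change of 0.20 ± 0.43 (SE, limma adjusted p = 0.916). These 3 and Ccnb2, with 5.47, 2.65 and 5.88 TPM in HEP and 3.10, 3.32 and 5.37 TPM in HFD, were lowest in HEP replicate 2 and overlapped between diets.

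Ccne2 and Cdk1 did not follow them. Ccne2 had 4.79, 3.83 and 3.71 TPM in HEP and 3.93, 5.62 and 4.13 TPM in HFD, highest in HFD replicate 2. It was the 1 tested member with a lower HEP mean, at a log2 fold change of -0.12, and its sign was the same under both other scalings but turned without HFD replicate 2, its highest library, where the log2 fold change was 0.02. Cdk1 (ENSMUSG00000019942) had 15.3, 20.4 and 29.9 TPM in HEP and 19.6, 20.4 and 21.6 TPM in HFD. The 2 HEP libraries rich in lymphocyte transcripts thus held its lowest and its highest value, and the HFD libraries differed little. The log2 fold change of Cdk1 was 0.04 ± 0.25 (SE, limma adjusted p = 0.972), and it was below 0 with either other scaling. Its TPM level, adjusted for length, was above that of its partners Ccnb1 and Ccnb2 in every library. Ccne2 shares 609 exonic bases with Ints8 and Ccna2 shares 510 with Exosc9 on the opposite strand, partners with 12.2 to 19.9 TPM and 21.6 to 31.1 TPM.

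Mitotic kinases and the checkpoint were low in abundance and wide in swing. Plk1, Aurka and Aurkb are kinases of spindle and chromosome movement, Birc5 (survivin) targets Aurkb to chromosomes, and Bub1 and Bub1b hold back division until chromosomes are attached. Plk1 (ENSMUSG00000030867) had 3.08, 1.00 and 3.12 TPM in HEP and 2.13, 1.21 and 3.50 TPM in HFD, with a log2 fold change of 0.04 ± 0.42 (SE, limma adjusted p = 0.985), below 0 with either other scaling. Birc5 (ENSMUSG00000017716) had 8.96, 4.07 and 9.92 TPM in HEP and 3.82, 5.95 and 9.77 TPM in HFD, with a log2 fold change of 0.20 ± 0.42 (SE, limma adjusted p = 0.910). HFD replicate 3 stood with the high HEP libraries in both genes. Bub1b had 5.17, 1.61 and 5.76 TPM in HEP and 2.67, 1.65 and 4.78 TPM in HFD, and Aurkb had 4.82, 1.28 and 4.17 TPM in HEP and 2.82, 2.47 and 3.46 TPM in HFD. Bub1 had 2.24, 0.58 and 1.44 TPM in HEP and 1.56, 0.59 and 1.31 TPM in HFD, with HFD replicate 1 next below its highest library.

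Aurka was an exception among these kinases. It had 2.89, 3.42 and 3.84 TPM in HEP and 1.78, 3.02 and 2.82 TPM in HFD. HEP replicate 2, lowest for most members, exceeded all HFD libraries here, and the groups overlapped only because HEP replicate 1 lay below HFD replicate 2. The log2 fold change was 0.32 ± 0.25 (SE, limma adjusted p = 0.879), and with the lymphocyte covariate it was 0.29.

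Cdc20 and Ube2c belong to the anaphase-promoting complex pathway that destroys cyclin B. Cdc20 (ENSMUSG00000006398), its activator, had 5.15, 2.29 and 6.37 TPM in HEP and 2.31, 2.46 and 4.76 TPM in HFD, with a log2 fold change of 0.39 ± 0.40 (SE, limma adjusted p = 0.879). Ube2c (ENSMUSG00000001403), the E2 enzyme, had 10.2, 8.95 and 12.0 TPM in HEP and 7.69, 8.62 and 12.2 TPM in HFD, with a log2 fold change of 0.13 ± 0.23 (SE, limma adjusted p = 0.896), and -0.04 with quantile normalization. Ube2c spanned only 1.59-fold where Cdc20 spanned 2.78-fold. Ube2c shares 592 exonic bases on the opposite strand with Tnnc2, a fast muscle troponin that had 210.5, 2057 and 0.86 TPM in HEP and 10.4, 94.6 and 5.67 TPM in HFD. The library richest in muscle transcripts, HEP replicate 2, had 8.95 TPM of Ube2c. The part of this overlap in the Ube2c values was not tested.

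Chromosome, kinetochore and spindle genes held the largest estimates. Kif23, a kinesin of cytokinesis, had 14.1, 3.65 and 7.07 TPM in HEP and 2.68, 2.47 and 8.43 TPM in HFD, the widest span of the tested members at 5.72-fold. HEP replicate 1 stood well above the other 5 libraries, and the log2 fold change was 0.75 ± 0.57 (SE, limma adjusted p = 0.879), or 0.31 without that library. Cenpa (ENSMUSG00000029177), the histone H3 variant of centromeres, had 20.6, 5.57 and 16.5 TPM in HEP and 5.94, 5.58 and 11.4 TPM in HFD. HEP replicate 2 lay at the level of the lowest HFD library, and the log2 fold change was 0.71 ± 0.50 (SE, limma adjusted p = 0.879). Prc1, which bundles microtubules of the dividing spindle, had 5.73, 2.95 and 6.87 TPM in HEP and 2.82, 3.26 and 3.85 TPM in HFD. It was the member with the smallest p, its HFD libraries lay close together, and the log2 fold change was 0.47 ± 0.31 (SE, limma adjusted p = 0.879). Prc1 shares 911 exonic bases with Rccd1 on the opposite strand, which had 11.9, 6.22 and 5.85 TPM in HEP and 4.96, 7.13 and 8.33 TPM in HFD.

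Mki67 and Top2a, the usual marks of cycling cells, kept to the common order. Mki67 (ENSMUSG00000031004), which coats mitotic chromosomes, had 5.41, 1.75 and 7.06 TPM in HEP and 2.51, 2.29 and 5.43 TPM in HFD. Its HEP replicate 1 and HFD replicate 3 were nearly equal, and the log2 fold change was 0.31 ± 0.49 (SE, limma adjusted p = 0.884). Top2a (ENSMUSG00000020914), the topoisomerase that untangles sister chromosomes, had 12.4, 4.20 and 16.05 TPM in HEP and 8.11, 5.39 and 9.44 TPM in HFD. Here HFD replicate 1 came close to HFD replicate 3, and the log2 fold change was 0.32 ± 0.48 (SE, limma adjusted p = 0.880). Without HEP replicate 3 the log2 fold change was -0.0016 for Mki67 and -0.02 for Top2a.

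The other spindle genes were low. Kif11, the kinesin that pushes spindle poles apart, had 2.76, 1.16 and 3.64 TPM in HEP and 1.31, 1.30 and 3.15 TPM in HFD. Nusap1, a spindle microtubule protein, had 4.20, 2.35 and 5.20 TPM in HEP and 2.55, 2.63 and 5.07 TPM in HFD. Both were lowest in HEP replicate 2 and overlapped between diets. Tpx2, the activator of Aurka on the spindle, had 3.22, 2.26 and 4.8 TPM in HEP and 2.32, 2.44 and 3.83 TPM in HFD, and Kif20a, a kinesin of cytokinesis, had 2.56, 1.13 and 3.11 TPM in HEP and 2.43, 1.33 and 2.49 TPM in HFD. Cenpe had 1.33, 0.91 and 1.82 TPM in HEP and 1.13, 0.84 and 1.07 TPM in HFD, and Cenpf, below the level for testing, had 0.85, 0.23 and 1.12 TPM in HEP and 0.58, 0.35 and 0.95 TPM in HFD. Kif20a shares 1271 exonic bases with Cdc23 on the opposite strand and Nusap1 shares 172 with Oip5. Cdc23, at 22.5 to 29.0 TPM, was far above Kif20a in every library, and Oip5 had 1.71 to 4.21 TPM. The part of these overlaps in the Kif20a and Nusap1 values was not tested. Stmn1 (ENSMUSG00000028832), which takes microtubules apart and is also made outside the cycle, had 46.4, 40.8 and 59.0 TPM in HEP and 39.8, 52.3 and 51.6 TPM in HFD. It spanned only 1.48-fold, and its log2 fold change was 0.02 ± 0.20 (SE, limma adjusted p = 0.983), below 0 with either other scaling.

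Other genes of the cell cycle, a list of 94 with no member in it, gave a looser picture. Of 86 tested, 64 had a higher and 22 a lower HEP mean with TPM as deposited. Over all tested genes, 58.6% had a higher HEP mean. In limma 0 of the 86 passed, 0 had an unadjusted p under 0.05, and the median log2 fold change was 0.19. The order with HEP replicates 1 and 3 and HFD replicate 3 on top was found in 51 of 86, against 30.5% of all tested genes. The regulators above the members were mixed. Foxm1, the forkhead factor of mitotic genes, had 2.88, 0.62 and 3.55 TPM in HEP and 0.99, 1.74 and 1.72 TPM in HFD, while Mybl2, the MYB factor of the activating MuvB complex, had 1.30, 0.61 and 1.10 TPM in HEP and 1.2, 0.49 and 2.55 TPM in HFD. E2f1 ran the other way, with 4.96, 7.30 and 4.56 TPM in HEP and 5.76, 7.96 and 4.65 TPM in HFD, lowest in the 3 libraries rich in lymphocyte transcripts.

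The D cyclins, which link growth signals to cell cycle entry, overlapped between the diets. Ccnd1 had 27.3, 18.1 and 24.1 TPM in HEP and 14.2, 22.3 and 25.0 TPM in HFD, Ccnd2 lay at 43.8 to 57.04 TPM in HEP and 41.4 to 61.9 TPM in HFD, and Ccnd3 at 65.6 to 89.5 TPM in HEP and 55.6 to 71.6 TPM in HFD. Among the 86 tested genes of this list, 4 had groups that did not overlap. Rbbp4, a histone-binding subunit of MuvB, and Spc24, a kinetochore protein, were higher in HEP. Orc6, of the origin recognition complex, and Tfdp2, an E2F partner, were lower in HEP. With 2 of 86 on each side, these counts were close to the shares of all tested genes, 1.88% higher and 3.58% lower. Rbbp4 had 90.4, 73.8 and 78.2 TPM in HEP and 62.0, 66.4 and 73.0 TPM in HFD, with an unadjusted limma p of 0.114. Orc6 had 24.5, 27.2 and 25.2 TPM in HEP and 32.9, 31.2 and 28.9 TPM in HFD, with an unadjusted limma p of 0.0961. Gins1, of the replicative helicase, had the smallest unadjusted limma p of the list at 0.0829, with 4.61, 3.03 and 3.86 TPM in HEP and 6.12, 4.50 and 7.24 TPM in HFD. Spc24 had 3.38, 2.64 and 2.70 TPM in HEP and 1.45, 1.36 and 2.58 TPM in HFD, and Tfdp2 had 13.8, 10.4 and 12.1 TPM in HEP and 14.0, 15.3 and 15.1 TPM in HFD. The others named by smallest p within their lists were Rb1 (log2 fold change -0.24), the retinoblastoma protein, Cdk4 (0.21), the partner of the D cyclins, Lin37 (0.27) of MuvB, Cdt1 (0.85), which loads the helicase with Cdc6, Kif15 (0.78), a spindle kinesin, and Spc25 (-0.32), the partner of Spc24. For each of these genes the limma adjusted p was 0.879.

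Markers of the cells that could carry these transcripts differed in their order over the libraries. Cd79b, a chain of the B cell receptor, had 252, 2.95 and 300 TPM in HEP and 1.77, 1.89 and 149 TPM in HFD, and Cd3e, of the T cell receptor complex, had 78.5, 0.43 and 80.7 TPM in HEP and 0.77, 2.05 and 52.8 TPM in HFD. The 9 macrophage markers summed to 1562, 819 and 1529 TPM in HEP and 580, 1486 and 1127 TPM in HFD. By sum, HEP replicates 1 and 3 were highest, as for the proliferation genes, with HFD replicate 2 next. Gene by gene the order was another, with Adgre1, the F4/80 antigen, at 17.01, 14.8 and 14.6 TPM in HEP and 12.7, 35.2 and 8.26 TPM in HFD. HFD replicate 2, highest in 7 of 9 macrophage markers, was highest in 2 of 36 proliferation genes, Ccne2 and Tyms. The 7 progenitor markers summed to 1076, 1533 and 841 TPM in HEP and 1341, 1618 and 976 TPM in HFD. Their lowest sums were in the libraries rich in lymphocyte transcripts, and 1 of the 7 ran the other way, highest in those libraries. The 6 endothelial markers summed to 411, 410 and 427 TPM in HEP and 421, 555 and 473 TPM in HFD. All 6 were highest in HFD replicate 2. Lymphocyte content entered the fits as the covariate above, and the part of other cell types, adipocytes included, was not tested.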

How the data were processed

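The authors deposited 1 gene table in TPM, with a column for every library and one averaging each diet. Tools listed in the submitters' processing notes are RSEM, HISAT2, StringTie, fastp and DESeq2, without versions or roles. The authors' genome build and annotation release were not given in the sources used here. TPM columns summed to 999999.71 to 1000000.7. Because TPM is a share of the library, abundant transcripts of other cells lower all other values, and it keeps no read depth, so no counting interval was given.

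Samples were grouped by title. The 15446 genes whose 6 libraries averaged 1 TPM or more entered a limma fit (version 3.58.1, R 4.3.3, trended prior variance) of log2(TPM + 1), HEP against HFD, two-sided, with Benjamini-Hochberg adjustment over all genes tested and a threshold of 0.05. Fold changes on this scale understate changes of low genes. The fit was also run on simulated data, made from the means and spread of these data with known changes added. The members, the other lists, the tests and the alternatives were chosen with earlier results of these data known. Statistics are given for 16 members named in the rule and the 5 others with the smallest p. Of the other cell-cycle genes, 6 were named in the rule and up to 3 per list by smallest p. Alternatives were another pseudocount, other filters on low values, both other scalings, a robust prior, the replicate block, the lymphocyte covariate and leaving out libraries. For some of the marker lists no result is reported here. Exon overlaps came from GENCODE mouse release M21, in which all 37 gene IDs were found. No genome coordinates of the authors' data were used, and promoters are RefSeq windows matched by symbol. Pseudogenes named after a member were at 1.26 TPM or less in every library. That highest value was Ccnb2-ps in HFD replicate 2, which had 0.89 TPM in HFD replicate 3 and 0 TPM in the HEP libraries. Its part in the low Ccnb2 values was not tested.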

Additional observations from a re-analysis of the deposited data

How the results depend on the processing

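With 3 samples per diet, the 0 member calls stood under all 15 alternatives, where the smallest member adjusted p in limma was 0.207, without HEP replicate 2. Without that library 1 gene of all tested passed (adjusted p = 0.0177), the small nuclear RNA gene Gm25541, so leaving out 1 library gave 0 to 1 calls. The number of members with a higher HEP mean was 35, and 24 to 35 without 1 library. It was 19 of 19 with a mean of at least 5 TPM, 21 with quantile normalization and 11 with the lymphocyte covariate. The mean difference over members was 0.08 to 0.54 without 1 library. The cause of each reversal was not tested. Of the 21 members given with statistics, those that turned are listed next, while over all tested members 25 were below 0 with the covariate, 15 with quantile normalization, 5 with median-of-ratios scaling and 3 without both libraries high in liver transcripts. With the lymphocyte covariate, log2 fold changes were below 0 for Mki67 (-0.17), Top2a (-0.10), Ccna2 (-0.15), Ccnb1 (-0.013), Ccne1 (-0.20), Mcm5 (-0.22), Pcna (-0.039), Rrm2 (-0.029), Plk1 (-0.33), Birc5 (-0.20), Ube2c (-0.034) and Stmn1 (-0.095). With median-of-ratios scaling this held for Cdk1 (-0.016), Plk1 (-0.016) and Stmn1 (-0.037). With quantile normalization it held for Cdk1 (-0.088), Cdc6 (-0.047), Plk1 (-0.17), Ube2c (-0.035) and Stmn1 (-0.044). Without both libraries high in liver transcripts, Cdc6 had -0.11. Over fits without 1 library, log2 fold changes ran between -0.0016 and 0.77 for Mki67, -0.021 and 0.84 for Top2a, -0.21 and 0.26 for Cdk1, -0.027 and 0.65 for Ccna2, -0.071 and 0.64 for Ccne1, -0.061 and 0.42 for Cdc6, -0.011 and 0.37 for Pcna, -0.22 and 0.38 for Plk1, -0.077 and 0.55 for Birc5, and -0.12 and 0.14 for Stmn1. Those that kept their sign also moved, between 0.02 and 0.97 for Mcm5, 0.0014 and 0.30 for Ube2c, 0.04 and 0.61 for Ccnb1, 0.15 and 0.58 for Rrm2, 0.38 and 1.24 for Cenpa, 0.15 and 0.74 for Cdc20, 0.27 and 0.76 for Prc1, 0.31 and 1.21 for Kif23, 0.16 and 0.42 for Aurka, 0.35 and 1.13 for Mcm2, and 0.11 and 0.39 for Rrm1.

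The fit with a replicate block, the number in the titles, gave 0 calls over all genes and 0 members. Same-numbered libraries had correlations of -0.35, 0.37 and 0.65 between their deviations from the group means. HEP replicates 1 and 2 each correlated best with an HFD library of another number, and HEP replicate 3 with HFD replicate 3. These correlations cannot decide whether the numbers pair the samples, because the libraries also differed in lymphocyte transcripts.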

Other observations

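Outside the members, and chosen after their values were seen, Smc4, a condensin subunit that compacts chromosomes, had the largest log2 fold change of the other cell-cycle genes at 0.97 ± 0.77 (SE, limma adjusted p = 0.879). It had 72.5, 11.8 and 71.8 TPM in HEP replicates 1 to 3, against 15.2, 13.3 and 38.5 TPM in HFD replicates 1 to 3, so that its high libraries were those rich in lymphocyte transcripts. Hmgb2, a chromatin protein, had 41.3, 12.2 and 45.8 TPM in HEP and 12.3, 14.7 and 34.9 TPM in HFD, and Myc, a growth factor-induced transcription factor, had 21.1, 5.89 and 18.2 TPM in HEP and 4.73, 6.68 and 16.2 TPM in HFD. Pttg1, the securin that holds back the separation of sister chromosomes, was lowest in those 3 libraries. It had 87.2, 114 and 79.6 TPM in HEP and 109, 103 and 90.9 TPM in HFD.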
